A study of Rattus norvegicus with 4 samples.

Results

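The genes described here encode the subunits of the transcription factor NF-kB and the proteins that restrain it. The list holds 10 genes: the subunit genes Rela, Rel, Relb, Nfkb1 and Nfkb2, the cytoplasmic inhibitor genes Nfkbia, Nfkbib and Nfkbie, the nuclear IkB family gene Bcl3, and Tnfaip3, which encodes a ubiquitin-editing feedback inhibitor. Members were all non-control probes whose RefSeq accession maps to one of these symbols. This gave 9 of the 45598 probes on the array and 7 of the 16581 genes that could be named. Rel, Relb and Tnfaip3 matched no probe by accession and have no value here.

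RNA came from NR8383, a single rat alveolar macrophage line established by lung lavage, grown as a mixed adherent and floating culture and labelled as being at 20 passages. All 4 cultures described had received Fe2O3 particles (NRCWE018, 2 µg/mL) 4 h earlier, and each was hybridised to 1 single-colour array as a separate biological replicate. The study set exposed against control cultures to ask how the particle changes gene expression. The controls were not analysed here, and no value below is an effect of the particle.

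NF-kB proteins bind DNA as dimers built from members that share a Rel homology domain. In resting macrophages most dimers are held in the cytoplasm by IkB proteins. Signals from cytokine and Toll-like receptors activate the IkB kinase, IkB is degraded, and the freed dimers enter the nucleus and switch on inflammatory genes. Among the genes they switch on are their own inhibitors, above all Nfkbia and Tnfaip3, which closes a negative feedback loop.

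Promoter sequences are shown for 3 measured genes because the kB consensus, the DNA element that NF-kB dimers bind, lies close before their start. These are Nfkbia, the one member higher in replicate 3 than in replicate 1, Bcl3, the member that differed most between cultures, and Nfkb2. Nfkb2 was lowest in replicate 3, as were Rela, Nfkbib, Nfkbie and Bcl3. Rela and Nfkbib had no match in the window searched, and that of Nfkbie lay farther off, at -164. Whether a match goes with a gene's pattern over the arrays was not tested. Each line runs 5′ to 3′ along the gene's strand over the 250 bases before the annotated start in RefSeq's GRCr8 build, with the match to the kB consensus in capitals. The windows are chr6:78597073-78597322 (minus strand), chr1:88613556-88613805 (minus strand) and chr1:255108124-255108373 (plus strand).
Nfkbia: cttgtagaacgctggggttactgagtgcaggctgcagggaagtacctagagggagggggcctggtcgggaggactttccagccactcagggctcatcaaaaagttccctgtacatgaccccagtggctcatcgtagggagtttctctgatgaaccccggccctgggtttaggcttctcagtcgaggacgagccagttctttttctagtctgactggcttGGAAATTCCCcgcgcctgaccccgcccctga
Bcl3: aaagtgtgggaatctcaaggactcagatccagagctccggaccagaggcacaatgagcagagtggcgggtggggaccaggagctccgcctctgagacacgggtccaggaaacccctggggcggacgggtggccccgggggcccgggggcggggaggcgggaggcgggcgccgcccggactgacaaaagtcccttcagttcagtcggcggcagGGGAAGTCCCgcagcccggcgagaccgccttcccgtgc
Nfkb2: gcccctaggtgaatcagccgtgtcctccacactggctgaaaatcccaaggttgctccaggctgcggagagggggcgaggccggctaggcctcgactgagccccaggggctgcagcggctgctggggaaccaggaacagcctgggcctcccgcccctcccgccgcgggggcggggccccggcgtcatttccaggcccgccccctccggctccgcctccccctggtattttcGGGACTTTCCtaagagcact

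Both strands were searched for the kB consensus in windows of 250 bases before to 50 after each start. It was found in 7 of the 9 promoters of listed genes that the sequence table holds, against 4.18% of all 33469 promoters. Nfkbia carried GGGAATTTCC on the opposite strand with its leftmost base at -31 from the start, Bcl3 carried GGGACTTCCC on the opposite strand at -38, and Nfkb2 carried GGGACTTTCC on its own strand at -20. The capitals in the first 2 lines above are therefore the reverse complement of these letters. Nfkb1 held GGGAATTTCC from base 4 of the transcript, and Nfkbie held GGGGGATTCC at -164. Tnfaip3 had 3 matches and Rel 3 overlapping ones, whereas Rela and Nfkbib had none in this window. Listed promoters were richer in G and C, at 59.7% to 77.3% against a median of 51.7% for all promoters. A match is a description of the letters and not evidence of binding.

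All 7 measured genes were above background on all 4 arrays, against 50.6% of all named genes. Of their 9 probes, 8 were above background on all 4 arrays, against 36.6% of all probes. Levels are log2 processed signals minus log2 of their array's 75th percentile, so 0 marks that percentile. Levels of different probes cannot be set against each other, because probes differ in how well they hybridise. In bulk RNA, fewer cells expressing a gene and less RNA per cell cannot be told apart.

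**Figure D1:**
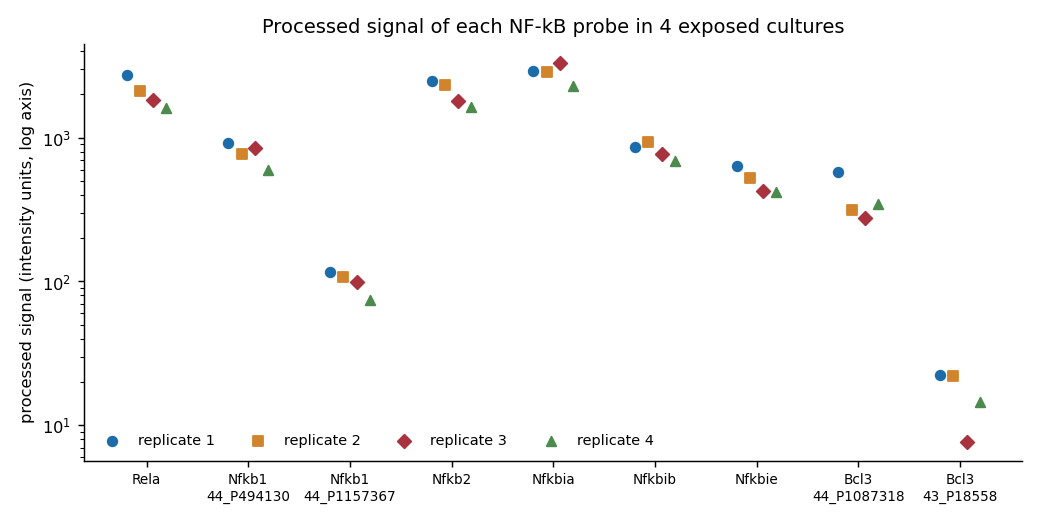
Processed signal of the 9 probes (log axis, intensity units before scaling between arrays), with 1 point for each of the 4 exposed cultures. Nfkbia lies between 2268 and 3304, and of the probes only A_43_P18558 of Bcl3, between 7.71 and 22.2, was not well above background on any array.

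Rela encodes the main transactivating subunit. On the log2 scale it stood at 1.35, 1.09, 0.75 and 1.09 in replicates 1 to 4, a mean of 1.07 ± 0.25 (SD, n = 4). Replicate 1 was highest and replicate 3 lowest, a 1.52-fold range, with replicates 2 and 4 level with each other. The spread did not pass limma's test of excess spread, in which a probe's variance between arrays is set against that of probes of like level (adjusted p = 0.994).

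Nfkb2 encodes the precursor of the non-canonical subunit. It stood at 1.21, 1.24, 0.74 and 1.10 in replicates 1 to 4, a mean of 1.07 ± 0.23 (SD, n = 4), so that replicate 3 lay apart below the other 3 (limma adjusted p = 0.998). Nfkb1, the gene of the canonical precursor, which yields the usual partner of RELA, was measured by a pair of probes. The brighter, A_44_P494130, read -0.23, -0.36, -0.35 and -0.35, a mean of -0.32 ± 0.06 (SD, n = 4). Its range of 0.13 was among the narrow ones, since 95.2% of named genes above background varied at least as much. The dimmer, A_44_P1157367, read -3.20, -3.19, -3.45 and -3.35, with replicates 3 and 4 lowest, so the probes placed the lowest culture differently. Both had a limma adjusted p of 0.998.

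Nfkbia encodes IkB-alpha, the inhibitor that is degraded and resynthesised fastest. It read 1.44, 1.53, 1.61 and 1.58 in replicates 1 to 4, a mean of 1.54 ± 0.08 (SD, n = 4). The cultures spanned 1.13-fold, and 90.7% of named genes above background had a range at least as wide. The SD between cultures was 0.53 times the error that the scanner software's error model gives for its spots, so the 4 values cannot be ordered beyond spot error.

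Nfkbib encodes IkB-beta, a slower-acting inhibitor. It read -0.32, -0.08, -0.49 and -0.15, a mean of -0.26 ± 0.18 (SD, n = 4), highest in replicate 2 and lowest in replicate 3. Nfkbie encodes IkB-epsilon, another feedback inhibitor. Its values were -0.77, -0.90, -1.34 and -0.84, a mean of -0.96 ± 0.26 (SD, n = 4). Replicate 3 lay below the other 3 cultures, which lay between -0.90 and -0.77, and the whole range was 1.49-fold. The limma adjusted p was 0.998 for each of Nfkbia, Nfkbib and Nfkbie.

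Bcl3 encodes a nuclear IkB-like protein that binds dimers of the processed NFKB1 and NFKB2 subunits and modulates transcription. Probe A_44_P1087318 read -0.89, -1.65, -1.97 and -1.12 in replicates 1 to 4, a mean of -1.41 ± 0.49 (SD, n = 4), and its processed signal was 577.1, 314.3, 275.4 and 347.2. The cultures fell into a higher pair, replicates 1 and 4, and a lower pair, replicates 2 and 3, and the highest was 2.12-fold above the lowest. A range this wide was found in 3.22% of named genes above background, and the SD was 3.37 times the spot error of the error model. In limma's test the unadjusted p was 0.0183 and the adjusted p 0.583, so the call was not made over all probes. The adjusted p ranged from 0.194 to 0.981 over the 13 settings examined. The other probe, A_43_P18558, was not well above background on any array and read -5.59, -5.47, -7.13 and -5.69, also lowest in replicate 3; it cannot bear on the order among cultures.

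In the test of excess spread 0 of the 8 member probes tested passed, and 1 of them, that of Bcl3, had an unadjusted p under 0.05, as had 5.91% of all probes tested. Over all 16674 probes tested with limma, 28 (0.168%) passed, and this count was 56, 11, 18 and 53 when replicates 1 to 4 were left out in turn. The median SD of the 7 genes was 0.23, beside 0.18 for all 8385 named genes above background. These p-values measure whether a probe's spread between the cultures exceeded that of probes of like level, and not how far the cultures differed. Since the 4 arrays shared 1 slide, a culture and its place on that slide cannot be told apart. No spot of a member was marked as an outlier or saturated.

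**Figure D2:**
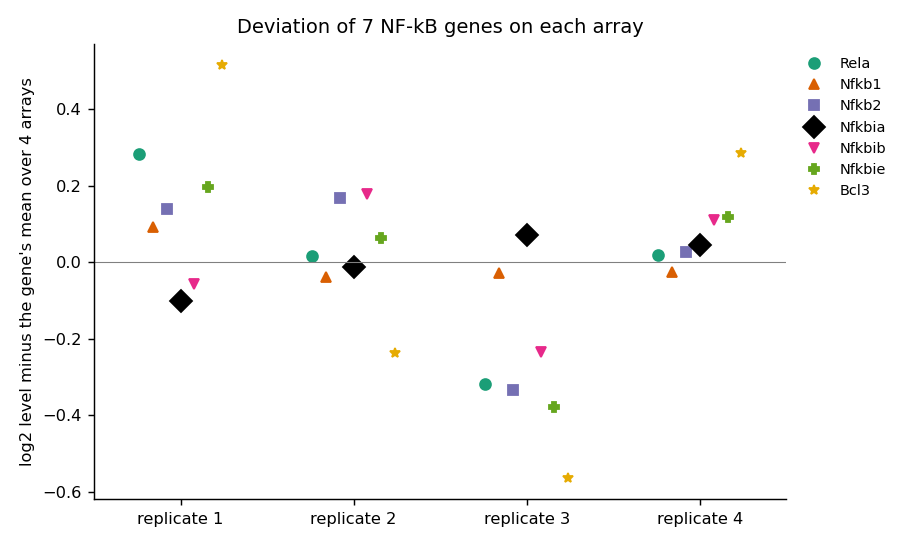
Deviation of each of the 7 measured genes from its own mean over the 4 arrays (log2), by replicate, with the brighter probe for Nfkb1 and Bcl3. On replicate 3, 5 genes lie between -0.56 and -0.23, while Nfkbia (large black diamonds) is at 0.07.

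Most members shared the culture in which they were lowest. Replicate 3 was lowest for 5 of the 7 genes (Rela, Nfkb2, Nfkbib, Nfkbie and Bcl3), beside 34.4% of all named genes above background. This order is that of levels scaled between arrays. In processed signal before scaling, Bcl3 was lowest in replicate 3, and Rela, Nfkb2, Nfkbib and Nfkbie were lowest in replicate 4. Replicate 1 was highest for 4 of the 7 (Rela, Nfkb1, Nfkbie and Bcl3), beside 20.0% of all named genes above background. The SD of Nfkb1 between cultures was 0.43 times its spot error, so its 4 values, like those of Nfkbia, cannot be ordered beyond spot error. Replicate 4 was neither highest nor lowest for any member, although it was highest for 36.3% of all genes. The mean deviation of the 7 genes was 0.15, 0.02, -0.26 and 0.08 in replicates 1 to 4, and the median deviation of all genes was -0.02, 0.01, -0.03 and 0.07. With normexp background correction the members' mean was highest on replicate 4, at 0.14 against 0.13 on replicate 1, and without replicate 3 that of replicate 1 was 0.07. With 4 cultures of 1 group, no test of one culture against another was possible, and these counts describe the arrays only.

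Between replicates 3 and 1, a pair chosen after the values were seen, 6 of the 7 genes were lower in replicate 3, beside 52.5% of all genes. Replicates 4 and 3 split the genes by sign in the same way, with Nfkbia apart from the other 6. That pair shares replicate 3 with the chosen one. Replicate 4 minus replicate 3 was 0.002 for Nfkb1 and -0.03 for Nfkbia, each smaller than the spot error of 0.14. So the place of these genes in that split cannot be told from spot error. The remaining pairs were less one-sided. Of the 7 genes, 5 were lower in replicate 3 than in replicate 2 (57.2% of all genes), 4 in replicate 2 than in replicate 1 (45.1%) and 5 in replicate 4 than in replicate 1 (36.4%). Only 2 were lower in replicate 4 than in replicate 2 (39.3%), and 1, Nfkbia, in replicate 4 than in replicate 3 (37.1%). For the chosen pair the differences, replicate 3 minus replicate 1, were -1.08 for Bcl3, -0.60 for Rela, -0.58 for Nfkbie, -0.47 for Nfkb2, -0.18 for Nfkbib and -0.12 for Nfkb1. The median over all genes was -0.02. A lower difference than that of Bcl3 was found in 0.107% of all genes. For Rela the share was 2.98%, for Nfkbie 3.41% and for Nfkb2 6.70%. Since the pair was picked on these values and genes of all levels are pooled, the shares are descriptions and not tests. Nfkb1 and Nfkbib lay within the bulk of the distribution, with 36.5% and 29.5% of genes below them. The difference of Nfkb1 was smaller than its spot error of 0.14.

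**Figure D3:**
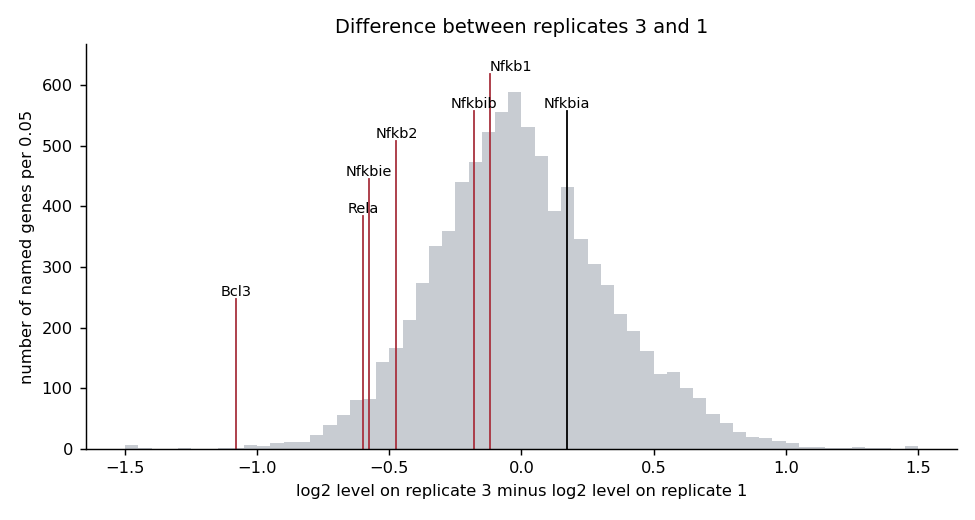
Histogram of the log2 level on replicate 3 minus that on replicate 1 for 8385 named genes above background on all 4 arrays, with lines at the 7 NF-kB genes. Values outside the axis are counted in the end bins. Bcl3 stands in the left tail at -1.08 and Nfkbia, at 0.17, is the only one of the 7 right of 0.

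Nfkbia was 0.17 higher in replicate 3 than in replicate 1, the only one of the 7 genes to be higher there in that pair. It was highest in replicate 3, as were 20.1% of all genes. Its deviation on replicate 3 was 0.07, and the mean deviation of the other 6 genes there was -0.31, a difference of 0.38. Nfkbia was set apart because of its value on that array, and this excess was not tested. Its SD between cultures was 0.53 times the spot error. The difference between replicates 3 and 1 was 0.18 for Nfkbia and -1.11 for Bcl3 with quantile normalization, and 0.13 for Nfkbia and -0.96 for Bcl3 with normexp background correction.

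The genes whose pattern over the 4 arrays was most like that of Bcl3, by Euclidean distance between deviations among 8384 other genes, were Prkar2a (0.199), Zmiz2 (0.208), Zswim8 (0.225), Cfi (0.231) and Zfp579 (0.241). Prkar2a read -3.85, -4.42, -4.73 and -4.09 in replicates 1 to 4. The nearest members were Rela and Nfkbie, at ranks 390 and 396. The likeness rests on 4 values a gene and says nothing of shared control.

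Most measured genes of the other pathway lists were also above background on all 4 arrays, as were 50.6% of all named genes. No test was made of these shares. Of 20 receptor and adaptor genes, 17 were on the array and 15 above background on all 4 arrays. The TNF receptor gene Tnfrsf1a read 2.54, 2.19, 2.20 and 2.69 in replicates 1 to 4, the lipopolysaccharide receptor gene Tlr4 -1.22, -1.12, -0.60 and -0.97, and the adaptor gene Myd88 3.77, 3.66, 3.63 and 3.77. Of the 15, 3 were highest in replicate 3, among them Tlr4, beside 20.1% of all named genes above background. Tlr4 was picked after its values were seen, and it did not pass limma's test of excess spread (adjusted p = 0.998). Il1r1 and Cd40 were above background on no array.

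Of 11 kinase genes, 9 were on the array and 8 above background on all 4 arrays, against 50.6% of all named genes. The catalytic subunit gene of the IkB kinase complex Ikbkb read 0.26, 0.38, 0.26 and 0.00, its partner Chuk -1.29, -1.14, -0.99 and -0.95, and the regulatory subunit Ikbkg 0.93, 0.95, 0.99 and 0.91. Ikbkg spanned only 0.08 between cultures. Map3k14, the kinase that starts the non-canonical branch and leads to processing of the NFKB2 precursor, was above background on 1 array.

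Of 19 genes of ubiquitin enzymes and partners of TNFAIP3, 16 were on the array. Above background on all 4 arrays were 14, against 50.6% of all named genes. The ubiquitin ligase gene Birc2 read -1.09, -1.01, -0.87 and -0.71, its paralogue Birc3 -4.34, -4.61, -4.97 and -4.52, and the deubiquitinase gene Cyld -2.45, -2.22, -2.00 and -2.07. Birc3 was highest in replicate 1 and lowest in replicate 3, whereas Birc2 and Cyld were lowest in replicate 1. Of 9 genes of further IkB-like proteins and nuclear cofactors, 5 were on the array and 4 above background on all 4 arrays. Nfkbil1 read -0.02, -0.14, -0.51 and 0.05, Commd1, which promotes RELA degradation, 2.97, 3.08, 3.06 and 3.02, and Pdlim2, a nuclear ubiquitin ligase for RELA, 1.41, 1.55, 1.20 and 1.33.

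**Figure D4:**
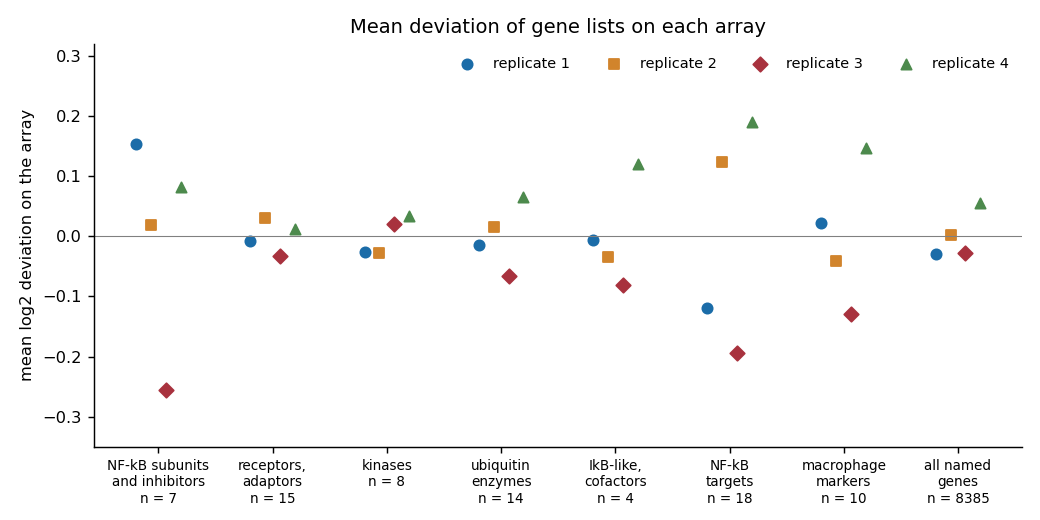
Mean log2 deviation of each gene list from its genes' own means, with 1 point per exposed culture and n the number of genes above background on all 4 arrays. The NF-kB subunits and inhibitors are highest on replicate 1 (0.15; with normexp background correction on replicate 4, at 0.14 against 0.13 on replicate 1) and lowest on replicate 3 (-0.26), while NF-kB targets are lowest on replicate 3 (-0.19) and highest on replicate 4 (0.19).

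All 25 listed NF-kB target genes were on the array, and 18 were above background on all 4 arrays, against 50.6% of all named genes. Tnf read 2.48, 2.80, 2.44 and 2.86 in replicates 1 to 4, Il1b 3.58, 3.92, 3.61 and 3.75, and the chemokine gene Cxcl2 -0.33, 0.21, -0.72 and 0.45. The mean deviation of the targets was -0.12, 0.12, -0.19 and 0.19. Of the 18, 11 were lowest in replicate 3, beside 34.4% of all named genes above background. Highest in replicate 4 were 10 (36.3% of all such genes), and 1 was highest in replicate 1 (20.0%). The transcription factor gene Irf1 was nearly flat, at 1.12, 1.14, 1.10 and 1.13. Nos2 and Plau were above background on 2 arrays each, and Traf1, Il6, Ptgs2, Csf2 and Cxcl1 on none. Over the 5 lists, 0 of the 59 genes above background passed limma's test of excess spread at the adjusted threshold. In that test 3 of the 59 had an unadjusted p under 0.05, a share near the 5.38% of all named genes above background. All 3 (Ccl4, Cxcl2 and Cxcl10, named after their values were seen) were among the 18 targets. Each of the other lists had 0, and this difference between lists was not tested.

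The cell type was checked on markers. All 10 macrophage markers were above background on all 4 arrays, against 50.6% of all named genes. Their mean deviation was 0.02, -0.04, -0.13 and 0.15 in replicates 1 to 4. Lowest in replicate 3 were 6 of the 10, beside 34.4% of all named genes above background. Of 22 measured markers of T cells, B cells, granulocytes, lung epithelium, endothelium and fibroblasts, 7 were above background on all 4 arrays and 15 on none. All 5 lung epithelium markers, among them Epcam and Sftpc, were among the 15. The 7 were the T cell gene Cd3d, the B cell gene Pax5, the granulocyte gene S100a8 and, of 6 endothelium and fibroblast markers, Vwf, Pecam1, Cdh5 and Dcn. Vwf averaged 2.21, Pecam1 -0.51, Dcn -1.80, Pax5 -2.17, Cd3d -3.70 and Cdh5 -4.23. S100a8 read -4.78, -3.43, -5.18 and -4.11 in replicates 1 to 4 and was lowest in replicate 3. The 7 had a mean deviation of -0.13, 0.13, -0.24 and 0.24, and the part of either marker list in the low values of the members on replicate 3 was not tested. The 75th percentile of processed signal, the quantity removed from each level, was highest in replicate 3, at 1082, and lowest in replicate 4, at 756.5, and its part in those values was not tested.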

How the data were processed

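Cy3-labelled RNA of the 4 exposed NR8383 cultures was measured on Agilent rat arrays of 1 colour, per the labels' protocols. The deposited intensity values come from Agilent Feature Extraction, version 11.0.1.1 (submitters' processing notes). Per the file headers, the authors' software subtracted background and detrended each array spatially, without scaling between arrays. Any later normalization by the authors is not given here.

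Control spots were left out, and outlier-marked spots too unless every spot of the probe was marked. From each log2 processed signal, log2 of the array's 75th percentile over unmarked spots was subtracted, repeat spots were averaged, and a probe counted as above background where at least 0.5 of its spots were well above background. Accessions were matched to RefSeq genes of GRCr8, used for names; 21109 probes had a symbol. A gene was represented by its probe above background on most arrays, then by the brightest. The test of excess spread (limma 3.58.1, R 4.3.3) divided a probe's variance between arrays by a robust prior variance that follows mean level, in an upper-tail F test with 3 residual degrees of freedom and Benjamini-Hochberg adjustment over the 16674 probes above background on all arrays, threshold 0.05. It was checked on simulated data. The normexp alternative used the median spot signal, since the files analysed carry no mean spot signal.

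Members and lists were chosen with earlier results of these data known. Named genes were all members, the first 3 measured genes of each pathway list, and the 5 genes most like the member of widest range. Irf1, the sentence on Tlr4 in replicate 3, the contrast of replicates 3 and 1 and that of Nfkbia with the other members were picked after the values were seen. The precision is limited by the number of arrays, which is 4.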

Additional observations from a re-analysis of the deposited data

Results flagged for a closer look

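Dixon's test was run on the 4 values of each of 24 probes and genes, and in 2 of them a single array stood away from the rest; chance does this in about 1 of 20. Probe A_44_P494130 of Nfkb1 was higher in replicate 1, at -0.23 against -0.36 to -0.35 in the others, with a gap of 0.892 of its range; that range was 0.13 on the log2 scale, and the SD between cultures was 0.43 times the spot error. Probe A_43_P18558 of Bcl3 was lower in replicate 3, at -7.13 against -5.69 to -5.47, with a gap of 0.868 of its range, and it was not well above background on any array.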

How the results depend on the processing

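No paired analysis was possible because the labels give 1 group. The count of member probes past the test of excess spread was 0 under all 12 alternatives run. The count over all probes was 28. It became 302 with normexp background correction of the median signal, 65 with probes above background on at least 1 array and 12 with a constant prior variance. When each array was left out it was 11 (without replicate 2) to 56 (without replicate 1). The number of probes tested also differed between settings, from 16674 to 21512. The causes of these changes were not tested. All 7 measured genes were above background under each alternative but 1: 6 were where every probe of a gene had to be, which Bcl3 did not meet. The number of member probes above background on all arrays was 8. It became 9, with the dimmer probe of Bcl3, when the software's mark of a positive and significant signal was used instead. Replicate 3 was lowest for 5 or 6 members, and replicate 1 highest for 3 to 5, under each alternative that keeps that array. The mean deviation on replicate 1 lay between 0.07 (without replicate 3) and 0.22, and with normexp background correction replicate 4 was above it. The mean deviation on replicate 3 lay between -0.31 and -0.20, and the excess of Nfkbia there between 0.28 and 0.44. The ends -0.31 and 0.44 came from the mean over all probes of a gene. That mean still included Bcl3, with its dimmer probe that was not well above background on any array. Under the other settings these ends were -0.28 (normexp background correction) and 0.40 (quantile normalization). The zero point of a level is a choice: Rela was at 1.07, or at -2.33 when only probes detected on every array enter the percentile. Low signal limits the dimmer probe of Bcl3.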
